A study of Arabidopsis thaliana and Brassica rapa with 28 samples.

Results

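The aliphatic glucosinolate synthesis genes are a set of 10 Arabidopsis thaliana genes, chosen by gene identifier. It holds BCAT4 (AT3G19710), MAM1 (AT5G23010), MAM3 (AT5G23020), IPMI1 (AT3G58990) and IPMI2 (AT2G43100), which lengthen the side chain of methionine. It further holds CYP79F1 (AT1G16410), CYP79F2 (AT1G16400) and CYP83A1 (AT4G13770), which start the glucosinolate core, and the transcription factors MYB28 (AT5G61420) and MYB29 (AT5G07690). Of the 10 genes, 9 have a row of their own among the 33543 rows of the Arabidopsis tables, and all 9 were tested in every comparison. The members were named with earlier results of these data known, so their levels and counts are given as a description.

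Transcripts were measured by RNA sequencing in whole seedlings of 4 groups, with 4 libraries per group. The control carried UAS::axr3-1::mCit in the hemizygous state without a driver, and the other genotype carried CER6pro>>axr3-1::mCit, in which the CER6 promoter drives the transgene in the epidermis. AXR3 (IAA17) is a repressor of auxin-responsive transcription, and axr3-1 is its stabilised form. Seedlings of both genotypes were raised in continuous white light (W) on agar plates, and at 5 d they received 4 h of either W or shade, given as white light of lowered red to far-red ratio. Nothing in the labels ties the 4 libraries of a group to separate cultures, so the deposited p-values may measure technical spread. The tables give 1 pooled FPKM (fragments scaled by transcript length and library size) per group, so there is no value per library, no SD, and no depth per library.

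Glucosinolates are sulfur-rich thioglucosides of the Brassicales that release toxic isothiocyanates and nitriles when tissue is damaged. In the aliphatic branch, methionine is deaminated, lengthened by repeated condensation with acetyl-CoA in the plastid, and then converted through an aldoxime to the thioglucoside core, which is sulfated and finally modified at its side chain. MYB28, MYB29 and MYB76 are the R2R3 MYB factors that activate this branch, while MYB34, MYB51 and MYB122 activate the indolic branch, which starts from tryptophan.

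CYP79F1 and CYP79F2 lie side by side on chromosome 1, and since the deposited test called CYP79F1 and not CYP79F2, their sequences are shown to let a reader see how far reads of 50 bases can tell them apart. In the RefSeq TAIR10.1 annotation CYP79F2 spans chr1:5605044-5607498 and CYP79F1 chr1:5608682-5612064, both on the plus strand with 1183 bases between them. Their coding sequences of 1614 and 1617 bases are 90.7% identical over the alignment. The following stretches are coding bases 32 to 151 of CYP79F1 and 29 to 148 of CYP79F2, with the 18 differing bases in capitals.
CYP79F1: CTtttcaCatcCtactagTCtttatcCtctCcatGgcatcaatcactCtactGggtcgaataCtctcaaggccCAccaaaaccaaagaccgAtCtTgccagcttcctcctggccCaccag
CYP79F2: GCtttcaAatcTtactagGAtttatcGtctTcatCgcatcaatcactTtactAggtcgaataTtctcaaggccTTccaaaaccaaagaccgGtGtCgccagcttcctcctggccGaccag
Of all 50-base words in the annotated transcript of CYP79F1, 2.00% also occur in that of CYP79F2, and 2.74% of the words of CYP79F2 occur in CYP79F1. The other pairs share no 50-base word: coding identity was 78.9% for MAM1 and MAM3, 66.9% for IPMI1 and IPMI2, and 66.8% for MYB28 and MYB29.

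Member transcripts were most abundant in control seedlings in W. The summed FPKM of the 9 members was 684 in control W, 345 in control shade, 273 in CER6pro>>axr3-1 W and 302 in CER6pro>>axr3-1 shade. Control W was the highest of the 4 groups for 8 of the 9 members, the exception being MAM3; control W was the highest group for 26.5% of the 20790 genes that reached 1 FPKM in some group. For those 8 members the other 3 groups lay below control W. These 3 groups lay close together for CYP79F1, CYP79F2 and CYP83A1 and further apart for others. MAM1 ran from 29.9 FPKM in CER6pro>>axr3-1 W to 45.4 in control shade. MYB29 ran from 1.59 FPKM in CER6pro>>axr3-1 shade to 3.59 in CER6pro>>axr3-1 W.

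**Figure D1:**
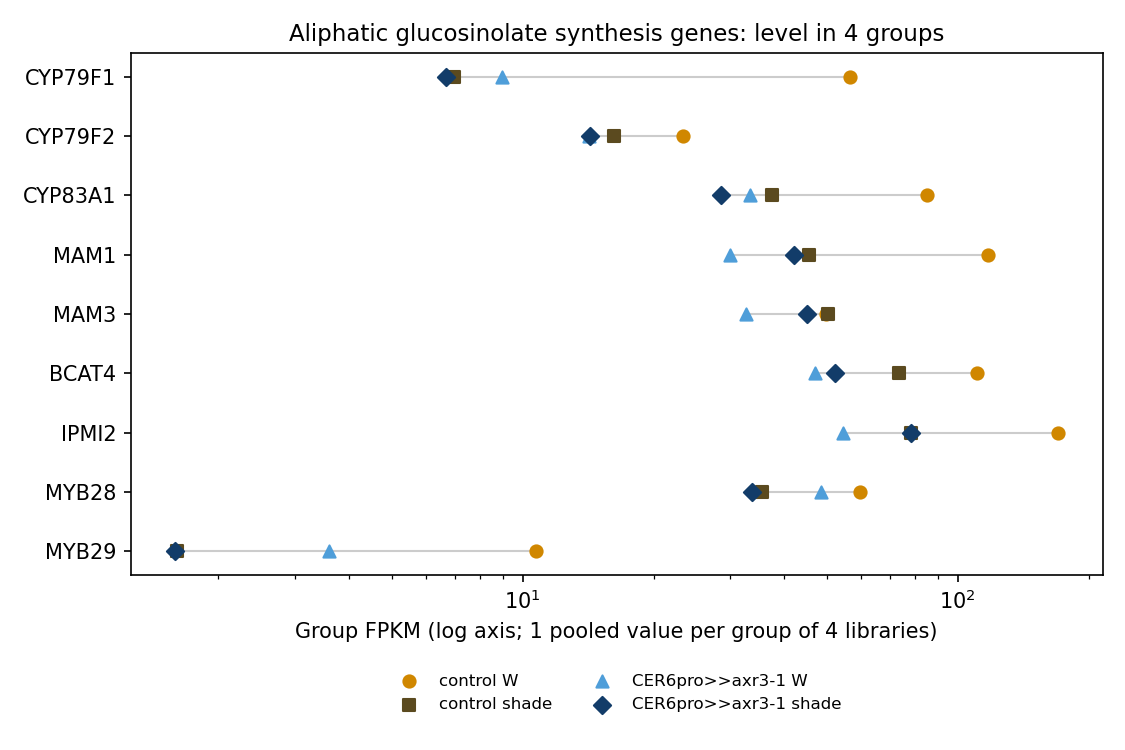
FPKM of the 9 members (rows) on a log axis, with 1 marker for each of the 4 groups and a grey line over their range. Control W (circles) stands to the right of the other groups for every member but MAM3; no error is shown because the tables hold 1 pooled value per group.

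Of the 9 members, 6 were called lower in shade than in W in control seedlings, and none was called higher, at a deposited q under 0.05. Among all tested genes 1.61% were called lower in that comparison. In CER6pro>>axr3-1 seedlings none of the 9 was called in either direction after shade, against 2.52% of all tested genes, and at an unadjusted p under 0.05 there were 4 against 8.15%. Of these 4, MAM1 and IPMI2 were higher in shade than in W, and MYB28 and MYB29 were lower. In W, 6 of the 9 were called lower in CER6pro>>axr3-1 than in control, against 0.699% of all tested genes. In shade, none of the 9 differed by that rule between genotypes, against 1.25% of all tested genes, and none had an unadjusted p under 0.05, against 4.95%. The median log2 fold of the members was -1.13 for shade in control, 0.00 for shade in CER6pro>>axr3-1, -1.35 for genotype in W and -0.11 for genotype in shade; over all tested genes these medians lay between 0.00 and 0.02. Because whole seedlings were pooled, fewer cells of a type and less RNA per cell cannot be told apart in any of these values. The shade comparison in control and the genotype comparison in W share the control W libraries, so their values are set side by side without a test of their likeness.

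**Figure D2:**
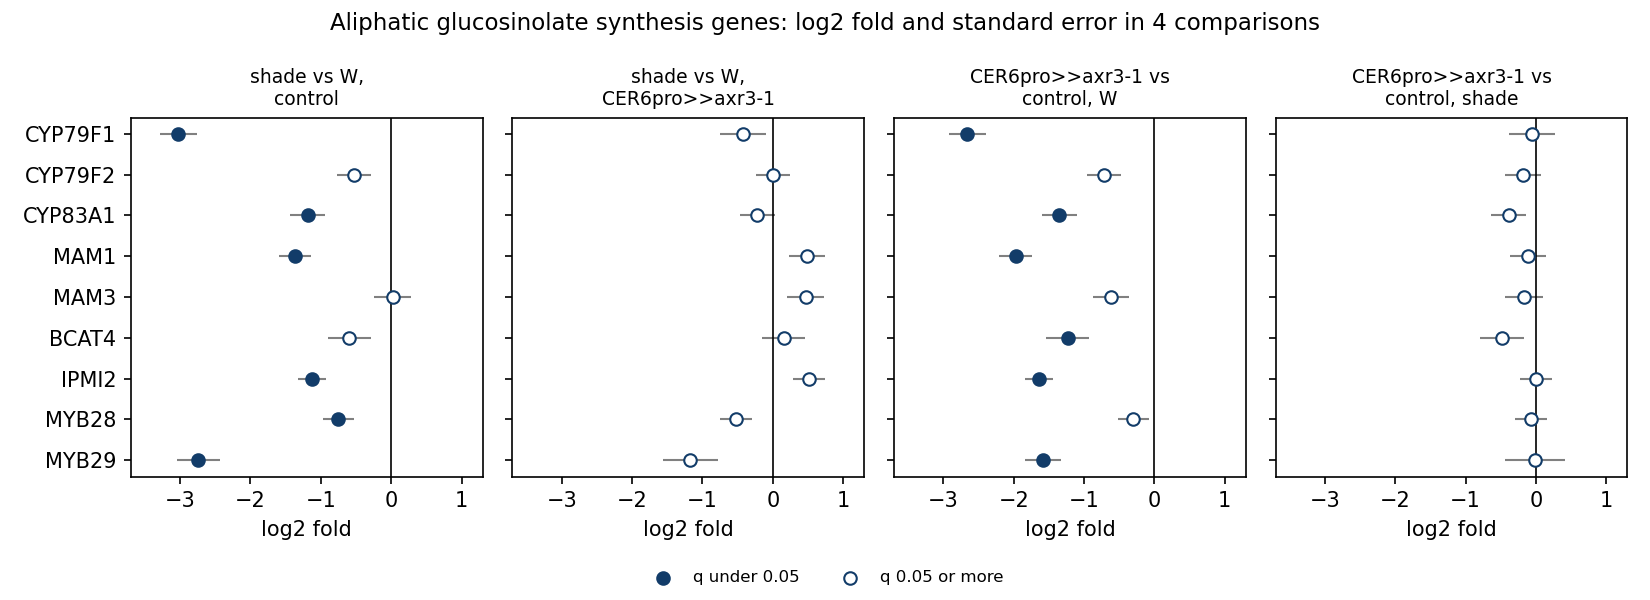
Log2 fold (x axis) of the 9 members in 4 comparisons (panels), with bars for the standard error; filled points have a deposited q under 0.05. Filled points occur in the first and the third panel, 6 in each, and all lie left of 0; the other two panels have none.

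The difference between the shade responses of the genotypes was tested per gene, on comparisons that share no library. By construction it equals the genotype log2 fold in shade minus that in W, so it also draws on control W. It is thus no separate evidence beside the calls above, and for these members it is a description. The shade log2 fold in CER6pro>>axr3-1 minus that in control was above 0 for all 9 members with a median of 0.96, against 0.01 over all genes tested. At an adjusted p under 0.05 it passed for 3 of the 9, CYP79F1, MAM1 and IPMI2, against 0.62% of the 19989 genes tested in either direction. With a larger standard error, taken directly from the authors' statistic, none of the 9 passed.

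**Figure D3:**
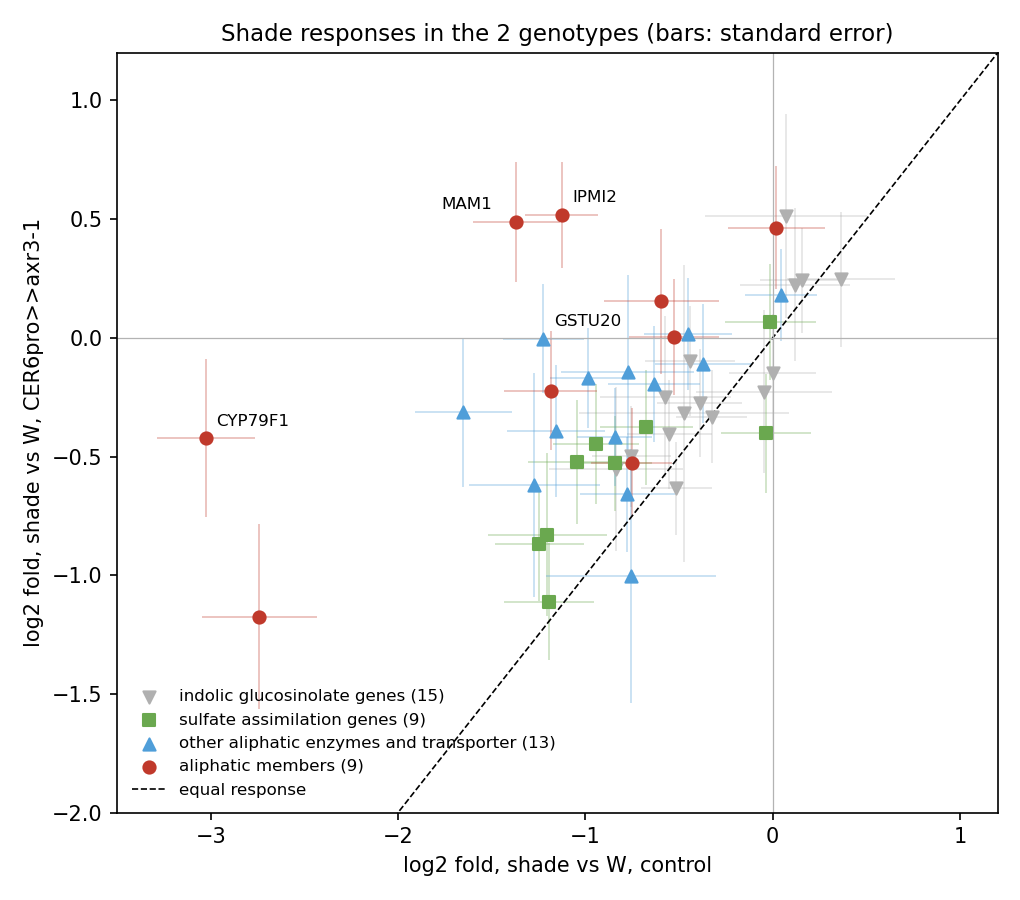
Shade log2 fold in control (x axis) against that in CER6pro>>axr3-1 (y axis) for members and 3 other lists, with standard errors as bars and the dashed line marking equal responses. The 4 labelled genes, CYP79F1, MAM1, IPMI2 and GSTU20, passed the test of the difference and lie above the line.

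Among the chain elongation genes, MAM1 and IPMI2 were called lower for shade in control. MAM1, MAM3, IPMI2 and BCAT4 were all lowest in CER6pro>>axr3-1 W. MAM1 encodes the methylthioalkylmalate synthase that condenses the oxo acid with acetyl-CoA for short chains (table locus on chromosome 5, 7703092 to 7706896, TAIR10). Its FPKM was 117 in control W, 45.4 in control shade, 29.9 in CER6pro>>axr3-1 W and 42.0 in CER6pro>>axr3-1 shade. It was thus high in control W and lower in the other 3 groups. Shade lowered MAM1 in control by 2.58-fold (log2 fold -1.37 ± 0.23 SE, q = 0.00309), and in W it was 3.92-fold lower in CER6pro>>axr3-1 than in control (log2 fold -1.97 ± 0.23, q = 0.00309). In CER6pro>>axr3-1 the shade log2 fold was 0.49 ± 0.25 (q = 0.545), and the difference from control was 1.86 ± 0.34, past the threshold of the z test.

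MAM3, the neighbouring synthase that accepts a wider range of chain lengths, gave no call in any comparison. Its FPKM was 49.8 in control W, 50.5 in control shade, 32.6 in CER6pro>>axr3-1 W and 44.9 in CER6pro>>axr3-1 shade. The genotype log2 fold in W was -0.61 ± 0.25 (q = 0.252), the lowest of its 4. The difference between its shade responses was 0.45, with a 95% interval from -0.27 to 1.16. The FPKM of MAM1 was 2.36 times that of MAM3 in control W and 0.900, 0.919 and 0.934 times in control shade, CER6pro>>axr3-1 W and CER6pro>>axr3-1 shade. MAM1 therefore exceeded MAM3 in control W alone of the 4 groups. MAM3 lies 11144 bases from MAM1 on chromosome 5.

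IPMI2 encodes a small subunit of the isopropylmalate isomerase used in chain elongation (table locus on chromosome 2, 17920660 to 17921689). Its FPKM was 170.4 in control W, 78.1 in control shade, 54.6 in CER6pro>>axr3-1 W and 78.1 in CER6pro>>axr3-1 shade. The shade groups of both genotypes had nearly the same level, below control W and above CER6pro>>axr3-1 W. Shade lowered it in control (log2 fold -1.13 ± 0.19, q = 0.00309) and it was lower by genotype in W (-1.64 ± 0.20, q = 0.00309). In CER6pro>>axr3-1 the shade log2 fold was 0.52 ± 0.22 (q = 0.489), so that the responses differed by 1.64 ± 0.30, past the threshold of the z test.

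IPMI1, the gene of a second small subunit, had no row of its own. The row named AT3G58980, with its locus on chromosome 3 from 21794445 to 21798303 in TAIR10, is the only row that spans the IPMI1 gene, which RefSeq places at chr3:21797058-21798303. That row read 39.7, 15.6, 19.9 and 16.9 FPKM in control W, control shade, CER6pro>>axr3-1 W and CER6pro>>axr3-1 shade. It was called lower for shade in control and for genotype in W, but its reads cannot be assigned to IPMI1.

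BCAT4 encodes the aminotransferase that takes the amino group from methionine and so opens the pathway. Its FPKM was 111 in control W, 73.4 in control shade, 47.1 in CER6pro>>axr3-1 W and 52.4 in CER6pro>>axr3-1 shade. Control shade lay between control W and both CER6pro>>axr3-1 groups. It was 2.35-fold lower in CER6pro>>axr3-1 than in control in W (log2 fold -1.23 ± 0.31, q = 0.00309), while the shade log2 fold in control was -0.59 ± 0.31 (q = 0.385). The difference between its shade responses was 0.75, with a 95% interval from -0.10 to 1.60. Its row shares a table locus with IKU2, which has a row of its own at no more than 0.0200 FPKM in any group.

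CYP79F1 had the largest change among the members. Its product converts elongated methionine of short and long chain to aldoximes, the first step of the core (table locus on chromosome 1, 5608807 to 5611426). Its FPKM was 56.6 in control W, 6.95 in control shade, 8.96 in CER6pro>>axr3-1 W and 6.68 in CER6pro>>axr3-1 shade. The 3 lower groups lay within a narrow range, far below control W. Shade lowered CYP79F1 by 8.14-fold in control (log2 fold -3.03 ± 0.26, q = 0.00309), and in W it was 6.32-fold lower in CER6pro>>axr3-1 (log2 fold -2.66 ± 0.26, q = 0.00309). In CER6pro>>axr3-1 the shade log2 fold was -0.42 ± 0.33 (q = 0.938), and the responses differed by 2.60 ± 0.42, past the threshold of the z test. The deposited p for shade in control was the smallest in the tables, 5e-05. It therefore cannot show whether this standard error, or that of the difference, is too small.

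CYP79F2, whose product acts on long chains, varied less. Its FPKM was 23.4 in control W, 16.2 in control shade, 14.2 in CER6pro>>axr3-1 W and 14.3 in CER6pro>>axr3-1 shade. Control W was the highest group, as for CYP79F1, and the other 3 groups lay close together. Neither the shade log2 fold in control (-0.53 ± 0.24, q = 0.401) nor the genotype log2 fold in W (-0.72 ± 0.24, q = 0.0759) passed the threshold. The difference between its shade responses was 0.53, with a 95% interval from -0.14 to 1.21. The FPKM of CYP79F1 was 2.42 times that of CYP79F2 in control W, 0.428 times in control shade, 0.629 times in CER6pro>>axr3-1 W and 0.468 times in CER6pro>>axr3-1 shade. CYP79F1 thus exceeded its neighbour in control W alone.

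CYP83A1 encodes the cytochrome P450 that oxidises the aldoximes made by the CYP79F enzymes. Its FPKM was 85.1 in control W, 37.4 in control shade, 33.4 in CER6pro>>axr3-1 W and 28.6 in CER6pro>>axr3-1 shade. Control W was again above the other 3 groups. Shade lowered it in control by 2.28-fold (log2 fold -1.19 ± 0.25, q = 0.00309), and it was 2.55-fold lower in CER6pro>>axr3-1 in W (log2 fold -1.35 ± 0.25, q = 0.00309). The difference between its shade responses was 0.96, with a 95% interval from 0.27 to 1.65, and did not pass after adjustment over all genes.

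Among the regulators, MYB29 had a wider range of levels than MYB28. The FPKM of MYB29 was 10.7 in control W, 1.60 in control shade, 3.59 in CER6pro>>axr3-1 W and 1.59 in CER6pro>>axr3-1 shade. Both shade groups were at the same low level and CER6pro>>axr3-1 W stood between them and control W. Shade lowered MYB29 by 6.68-fold in control (log2 fold -2.74 ± 0.31, q = 0.00309), and in W it was 2.99-fold lower in CER6pro>>axr3-1 (log2 fold -1.58 ± 0.26, q = 0.00309). In CER6pro>>axr3-1 the shade log2 fold was -1.17 ± 0.39 (q = 0.187), and the difference of 1.57 ± 0.50 did not pass after adjustment.

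MYB28 read 59.7 FPKM in control W, 35.4 in control shade, 48.5 in CER6pro>>axr3-1 W and 33.7 in CER6pro>>axr3-1 shade. Both shade groups lay below both W groups. The shade log2 fold in control was -0.75 ± 0.22 (q = 0.0141), that in CER6pro>>axr3-1 was -0.53 ± 0.23 (q = 0.282), and the genotype log2 fold in W was -0.30 ± 0.22 (q = 0.922). The difference between its shade responses was 0.23, with a 95% interval from -0.39 to 0.84. MYB28 had 5.57 times the FPKM of MYB29 in control W, 22.1 times in control shade, 13.5 times in CER6pro>>axr3-1 W and 21.2 times in CER6pro>>axr3-1 shade. MYB76, 1442 bases from MYB29, read 1.68, 0.360, 0.419 and 0.118 FPKM in the same order and was not called; it was tested in 2 of the 4 comparisons.

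The other enzymes of the route were counted over 13 genes, which were listed by their role in the pathway. In control seedlings shade lowered 7 of the 13 and raised none: BAT5, which carries the oxo acids across the plastid envelope, GSTF11 and GSTU20, glutathione transferases placed in the core, GGP1, the peptidase that trims the glutathione conjugate, UGT74C1 and UGT74B1, the glucosyltransferases, and SOT18, a sulfotransferase. Among all tested genes 1.61% were called lower for shade in control. In W, 4 of the 13 were lower in CER6pro>>axr3-1, namely BAT5, GSTF11, GSTU20 and SOT18, against 0.699% of all tested genes. None of the 13 was called for shade in CER6pro>>axr3-1, against 2.52% of all tested genes, or between genotypes in shade, against 1.25%. At an unadjusted p under 0.05 there were 2 and 0 in these comparisons, against 8.15% and 4.95%. Control W was the highest group for 12 of the 13, against 26.5% of the 20790 genes that reached 1 FPKM in some group. The median log2 fold was -0.78 for shade in control and -0.60 for genotype in W. SOT17, another sulfotransferase gene, had 2 rows among which its reads may be split, and neither was called.

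GSTU20 was the only gene of the other pathway lists to pass the z test of the difference between shade responses. It was 1 of 13 in its list, against 0.62% of all genes tested. Of these 13 differences, 12 were above 0, with a median of 0.47, against 0.01 over all genes tested. FMO GS-OX1 and AOP2 of the side-chain list had larger differences, 1.71 and 1.81, which did not pass after adjustment. The FPKM of GSTU20 was 459 in control W, 196 in control shade, 175 in CER6pro>>axr3-1 W and 174 in CER6pro>>axr3-1 shade. Control W was more than 2 times each other group. The shade log2 fold was -1.22 ± 0.22 in control and 0.00 ± 0.23 in CER6pro>>axr3-1, a difference of 1.22 ± 0.32 that passed the z test. It did not pass with a standard error factor of 1, nor at an adjusted p under 0.01. GSTF11 read 22.0, 6.99, 7.22 and 5.81 FPKM, in the order control W, control shade, CER6pro>>axr3-1 W and CER6pro>>axr3-1 shade, and its difference of 1.34 ± 0.41 did not pass.

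Genes that modify the side chain went in both directions. Of 7 tested, 4 were called lower for shade in control, against 1.61% of all tested genes. For genotype in W, 3 were called lower and 1 higher, against 0.699% and 1.46%. The flavin monooxygenases FMO GS-OX1 to FMO GS-OX5 oxidise the sulfur of the side chain and had no row under their own identifier; each was matched by position to a row that the tables name FMO. FMO GS-OX1 read 8.34, 2.43, 2.58 and 2.47 FPKM, in the order control W, control shade, CER6pro>>axr3-1 W and CER6pro>>axr3-1 shade. FMO GS-OX3 read 19.2, 3.87, 5.91 and 3.12 FPKM in that order. Both were high in control W and were called lower for shade in control and for genotype in W (each q = 0.00309), as was AOP2, which forms the alkenyl side chain, at 9.43, 1.28, 2.34 and 1.11 FPKM.

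FMO GS-OX2 had another pattern. It read 4.50 FPKM in control W, 0.952 in control shade, 21.2 in CER6pro>>axr3-1 W and 4.95 in CER6pro>>axr3-1 shade. CER6pro>>axr3-1 was thus above control in both lights, and shade was below W in both genotypes. The level was 4.70-fold higher in CER6pro>>axr3-1 in W (log2 fold 2.23 ± 0.35, q = 0.00309), where 1.46% of all tested genes were called higher, and 5.20-fold higher in shade (2.38 ± 0.62, q = 0.00564), where control lay below 1 FPKM. Shade lowered it in control (-2.24 ± 0.62, q = 0.0160) and in CER6pro>>axr3-1 (-2.10 ± 0.33, q = 0.00309), where 1.75% of all tested genes were called lower. FMO GS-OX4, FMO GS-OX5 and GSL-OH were called in none of the 4 comparisons, and AOP3 and BZO1 were not tested.

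**Figure D4:**
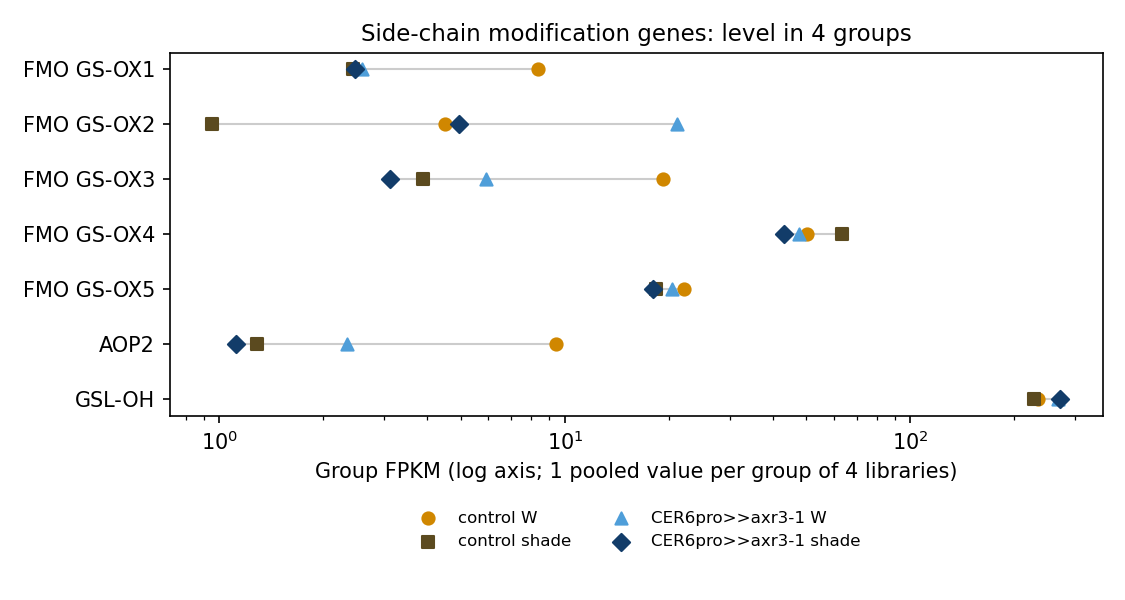
FPKM (log axis) of 7 side-chain modification genes (rows), 1 marker per group. FMO GS-OX1, FMO GS-OX3 and AOP2 are highest in control W (circles); FMO GS-OX2 is highest in CER6pro>>axr3-1 W (triangle) at 21.2 FPKM and lowest in control shade (square).

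Of 8 other regulators, 2 were called lower for shade in control, against 1.61% of all tested genes, and of 7 tested for shade in CER6pro>>axr3-1, 2 were called lower, against 1.75%. SDI1, a repressor of the pathway under sulfur deficiency, read 11.2 FPKM in control W, 4.79 in control shade, 6.55 in CER6pro>>axr3-1 W and 1.69 in CER6pro>>axr3-1 shade. Shade lowered it in control (log2 fold -1.22 ± 0.30, q = 0.0372) and in CER6pro>>axr3-1 (-1.96 ± 0.38, q = 0.00309), and in shade it was lower in CER6pro>>axr3-1 than in control (-1.51 ± 0.40, q = 0.0342). SDI2 was lower in shade in control (log2 fold -1.04 ± 0.23, q = 0.00309) and in CER6pro>>axr3-1 (-0.89 ± 0.24, q = 0.0387). MYC2, MYC3 and MYC4, the bHLH partners of the MYB factors, SLIM1 and IQD1 were called in no comparison; MYC2 read 17.5, 19.3, 20.6 and 16.6 FPKM in the order control W, control shade, CER6pro>>axr3-1 W and CER6pro>>axr3-1 shade.

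Of the 15 genes of the indolic list, 1 was called lower for shade in control, against 1.61% of all tested genes. This was CYP79B3, which makes the aldoxime from tryptophan (52.2 to 31.0 FPKM, log2 fold -0.75 ± 0.21, q = 0.0178). In that comparison 4 of the 15 had an unadjusted p under 0.05, for which no share over all tested genes was computed. Control W was the highest group for 10 of the 15, against 26.5% of the genes that reached 1 FPKM in some group. None was called in the other 3 comparisons, where 2 had an unadjusted p under 0.05 for shade in CER6pro>>axr3-1, against 8.15% of all tested genes, 1 for genotype in W, against 8.09%, and 0 for genotype in shade, against 4.95%. None of the 15 differences between shade responses passed, against 0.62% of all genes tested. At an unadjusted p under 0.05 there were 0, for which no share over all genes was computed. The median log2 fold of the indolic genes was -0.39 for shade in control, -0.25 for shade in CER6pro>>axr3-1, -0.18 for genotype in W and -0.03 for genotype in shade.

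Sulfate assimilation supplies the sulfur of the core. Of 9 tested genes, 6 were called lower for shade in control, against 1.61% of all tested genes. These were ATPS3, an ATP sulfurylase, APR1, APR2 and APR3, the reductases of adenylylsulfate, and APK1 and APK2, kinases that make the sulfate donor. Control W was the highest group for all 9, against 26.5% of the genes that reached 1 FPKM in some group. APR1 fell from 65.7 to 27.7 FPKM in control (log2 fold -1.25 ± 0.24, q = 0.00309) and from 41.4 to 22.7 FPKM in CER6pro>>axr3-1 (-0.87 ± 0.24, q = 0.0213). APR2 also fell in both genotypes, by 1.19 and 1.11 on the log2 scale. In CER6pro>>axr3-1, 2 of the 9 were called lower for shade, against 1.75% of all tested genes. In W only ATPS3, 1 of the 9, was lower in CER6pro>>axr3-1 (log2 fold -0.84 ± 0.23, q = 0.0160), where 0.699% of all tested genes were called lower. Of 12 genes of transport and breakdown, 1 was called lower for shade in control and 2 in CER6pro>>axr3-1, against 1.61% and 1.75% of all tested genes. The importer gene GTR1 fell in both genotypes (20.1 to 10.2 FPKM in control, 21.3 to 9.56 in CER6pro>>axr3-1). NSP1, a nitrile-specifier protein gene, was called in CER6pro>>axr3-1 (167 to 76.1 FPKM) and not in control (q = 0.0703). None of the 12 differences between shade responses had an unadjusted p under 0.05, for which no share over all genes was computed. Of the leucine synthesis genes, whose enzymes are related to those of chain elongation, 3 were tested and none was called. At an unadjusted p under 0.05 there was 1, for shade in CER6pro>>axr3-1, against 8.15% of all tested genes.

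The genes nearest to the median profile of the members over the 4 groups were sought by the Euclidean distance between centred log2 FPKM profiles, among 5835 genes that reached 1 FPKM in every group and had a profile range of 0.5 or more on the log2 scale. With members left out, these were GSTU20 at a distance of 0.0876, AT1G14430 at 0.107, AT5G63180 at 0.236, HMT3, a homocysteine methyltransferase that makes methionine, at 0.248, and AK3, an aspartate kinase, at 0.257. AK3 read 37.4, 16.7, 15.8 and 12.9 FPKM and HMT3 5.45, 2.79, 2.58 and 2.25 FPKM, in the order control W, control shade, CER6pro>>axr3-1 W and CER6pro>>axr3-1 shade. For both, control W was the highest group. AK3 passed the deposited test for shade in control and for genotype in W (each q = 0.00309), and HMT3 passed neither (q = 0.132 and 0.0657). Ranked in the same way with members left in, 4 members were among the nearest 50. The others ranked 98 (CYP79F2), 625 (MYB28), 1363 (MAM3), 3517 (MYB29) and 3836 (CYP79F1), so the median profile was far from that of some members. Likeness over 4 group values is a description.

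The 10 promoters were searched on both strands, from 250 bases before to 50 bases after the RefSeq start, for the G-box CACGTG, the PBE-box CACATG and the auxin response element TGTCTC. The G-box occurred in CYP83A1 alone, against 7.68% of 27443 promoters. TGTCTC occurred in IPMI1 alone, against 14.2%, and CACATG in none of the 10, against 12.9%. The 250 bases before the start are shown for CYP83A1, with its G-box in capitals (TAIR10.1, chr4:7992430-7992679, minus strand), and for the CYP79F neighbours, which hold none of these letters in the window (chr1:5608432-5608681 for CYP79F1 and chr1:5604794-5605043 for CYP79F2, plus strand).
CYP83A1: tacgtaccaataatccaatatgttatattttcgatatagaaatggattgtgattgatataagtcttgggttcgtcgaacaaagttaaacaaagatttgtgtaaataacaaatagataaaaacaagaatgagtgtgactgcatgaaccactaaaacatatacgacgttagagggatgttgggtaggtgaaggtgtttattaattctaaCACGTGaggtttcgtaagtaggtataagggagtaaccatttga
CYP79F1: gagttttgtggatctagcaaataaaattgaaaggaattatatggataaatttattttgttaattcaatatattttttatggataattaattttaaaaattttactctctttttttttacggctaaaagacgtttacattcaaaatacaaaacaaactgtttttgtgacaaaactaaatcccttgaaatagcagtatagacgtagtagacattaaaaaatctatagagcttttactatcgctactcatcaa
CYP79F2: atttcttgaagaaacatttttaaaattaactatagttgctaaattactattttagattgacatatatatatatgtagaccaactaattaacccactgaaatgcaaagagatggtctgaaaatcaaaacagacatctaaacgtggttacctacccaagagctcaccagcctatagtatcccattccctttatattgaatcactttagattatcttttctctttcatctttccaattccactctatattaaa

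The genotype was visible in AXR3, whose row can hold reads from the native gene as well as the transgene: 47.1 FPKM in control W, 37.1 in control shade, 113 in CER6pro>>axr3-1 W and 112 in CER6pro>>axr3-1 shade. Markers of leaf, root, epidermal, vascular and guard cells were detected in all groups of these whole seedlings, although LHCB1.3 was listed at 0 in 3 groups. In W all 5 epidermal markers were below 0 in CER6pro>>axr3-1 against control, with a median log2 fold of -0.49 against -1.35 for the members. Of the 5, 1 was called (PDF1, log2 fold -1.03 ± 0.27, q = 0.00793), against 0.699% of all tested genes called lower. For shade in control all 5 epidermal and all 6 vascular markers were below 0, and none was called. The summed FPKM of the 5 epidermal markers was 891 in control W, 770 in control shade, 563 in CER6pro>>axr3-1 W and 675 in CER6pro>>axr3-1 shade. None of the 5 was at 0 in any group, and CER6 itself read 263, 197, 180.0 and 200.3 FPKM in that order. No vascular or root marker was called in any comparison, and of the guard cell markers KAT1 was called higher for shade in CER6pro>>axr3-1 (11.3 to 44.6 FPKM, log2 fold 1.98 ± 0.31, q = 0.00309). The part of these markers in the members' levels was not tested.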

How the data were processed

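RNA of 16 Arabidopsis libraries, 4 per group, was read as single ends of 50 bp from stranded polyadenylated libraries, per the labels' protocols. Per the submitters' processing notes, CASAVA 1.8.2, TopHat2 2.0.9, Bowtie2 2.1.0, Cufflinks and Cuffdiff were used with TAIR10; no source used here says whether counting used strand. The FPKM values were deposited by the authors as 1 pooled value per group, so depth is unknown. The score of each gene is the authors' deposited Cuffdiff statistic. The p-value and q-value are those the authors deposited; the smallest were 5e-05 and 0.00309. In the text, q is always from the authors' deposited tables.

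A gene was called at q under 0.05 among genes marked as tested. Log2 folds are ratios of group FPKMs with no pseudocount, since the deposited fold column held spreadsheet errors. The standard error is the log2 fold over the statistic, multiplied by a scale factor (0.558 to 0.564). This factor is the median over genes of the statistic divided by the normal deviate that p gives. In 1.54 to 1.70% of genes the statistic was more than 2 times what p implies, so their standard errors may be too small. Among the members this held for CYP79F1 and MYB29 for shade in control, and for CYP79F1, MAM1 and IPMI2 for genotype in W. All of these were at the smallest deposited p of 5e-05, a floor that hides how small p would be. For them p therefore cannot show whether the standard error is too small. Shade responses were compared by a two-sided z test per gene with Benjamini-Hochberg adjustment over 19989 genes that reached 1 FPKM in some group. The z test was also run on simulated data, whose noise was drawn from the same standard errors that the test used. That run therefore cannot check the scale factor of the standard errors. No batch is named in the labels, and within-batch values could not be given.

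The members and the lists were chosen with earlier results of these data known. Named were all members, AXR3, CER6, every regulator, up to 5 called genes per list and comparison by size of log2 fold, and the 5 nearest profiles; UGT74B1, GGP1, APK1, SOT17, AOP3, BZO1, FMO GS-OX4, FMO GS-OX5, GSL-OH, PDF1, KAT1, LHCB1.3, IKU2 and AT3G58980 were added after their values were seen. Of the listed genes, 5 were matched by position. Row loci (TAIR10) were compared with RefSeq genes (TAIR10.1): of 32021 genes found, all but 1 overlapped. Paralogues were compared by aligned coding bases in place of proteins, a change made after the files were seen. Software was Python 3.11.15 with numpy 2.4.6, pandas 2.3.3, scipy 1.17.1, Biopython 1.88 and matplotlib 3.10.9. The 8 Brassica tables were not used here, because their identifiers are not paired with Arabidopsis genes in the sources used here.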

Additional observations from a re-analysis of the deposited data

Results flagged for a closer look

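The shade response differed between genotypes by the z test of the difference itself for 3 members and 1 further pathway gene. Members and lists were chosen with earlier results of these data known, so this is a description. Each of these differences draws on the high level in control W. The shade log2 fold in CER6pro>>axr3-1 minus that in control was 2.60 for CYP79F1, 1.86 for MAM1, 1.64 for IPMI2 and 1.22 for GSTU20. With a standard error factor of 1, none of the 4 differences passed. In each case shade lowered the gene in control and gave no call in CER6pro>>axr3-1, where the level in W was already below that of control W.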

How the results depend on the processing

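Under the alternatives 323 values were computed, and 4 changed sign, all of them near 0 and not called. With the median of all tested genes subtracted, CYP79F2 for shade in CER6pro>>axr3-1 went from 0.0036 to -0.016, as did the members' median there, and IPMI2 for genotype in shade went from 0.0011 to -0.011. The mean over members for shade in CER6pro>>axr3-1 was -0.080, against a median of 0.0036. Of the 144 values of single members, 141 kept their direction and their side of the threshold; beside the 2 changes of sign, MYB28 for shade in control did not pass at a q under 0.01 (q = 0.0141). At an unadjusted p under 0.05, 4 members passed for shade in CER6pro>>axr3-1 in place of 0, and of the other lists 18 in place of 7 for shade in CER6pro>>axr3-1, 20 in place of 9 for genotype in W and 4 in place of 2 for genotype in shade. For genotype in shade, 1 other listed gene passed at a q under 0.01, without SDI1, and 1 where both groups had to reach 1 FPKM, without FMO GS-OX2. With a standard error factor of 1, the shade responses of 0 members, 0 other listed genes and 45 genes in all differed between genotypes, in place of 3, 1 and 124. At an adjusted p under 0.01 no other listed gene differed (0 in place of 1). The remaining changed values were counts of single lists. No paired analysis was possible because the tables hold 1 pooled value per group and carry no replicate numbers, and for the same reason no library could be left out. Depth per library is unknown.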
